A study of Mus musculus with 12 samples.

Results

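Transcripts of 10 endothelial lineage transcription factors (Erg, Fli1, Ets1, Ets2, Sox7, Sox17, Sox18, Tal1, Gata2 and Klf2) were measured in SVR angiosarcoma tumors. They were chosen by gene name, as 10 of the 54232 genes in the table of counts. The rule used no measured value, but earlier results of these data were known when the factors were chosen. Of the 10 factors 9 passed the filter on low counts, as did 12897 genes in all, and Sox17 did not. SVR is a mouse endothelial cell line immortalized with a viral large T antigen and transformed with activated Ras, and the labels give its strain as C57BL/6. The cells were grown under the skin of young adult athymic nude mice, hosts that lack T cells. The question was how inhibition of VEGF receptors and of the MAPK pathway, alone or together, changed the tumors. Control mice received vehicle, and the other groups received trametinib (a MEK inhibitor) at 1 mg/kg, cediranib (a VEGF receptor inhibitor) at 3 mg/kg, or both at these doses, by daily gavage, per the labels until tumors ulcerated or reached a size limit. The study also describes dosing to a common harvest time, and which experiment gave these tumors is not stated, so time on treatment may differ between groups. Each group held 3 tumors, 12 libraries in all, and nothing in the labels ties tumors of equal number to a shared litter or day.

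RNA came from whole tumor lysate and was captured with exome probes, a choice the study made for degraded RNA, so a count depends on the probes of a gene as well as on its transcripts. How evenly the probes captured mouse transcripts was not tested. Libraries held 9478865 to 11666094 counts, and 3 counts corresponded to 0.257 to 0.317 CPM, counts relative to the library total. All CPM below were also scaled with TMM factors. Tumor cells, host vessels and other host cells are all of mouse origin and were not separated. In such bulk samples fewer cells of a type and less RNA per cell cannot be told apart. The endothelial label was checked against Cdh5, the junction protein VE-cadherin, at 45.2 to 120 CPM in control tumors, and Tie1, an endothelial receptor, at 108 to 181 CPM. Pecam1, the adhesion molecule CD31, was low there at 3.14 to 4.59 CPM. Clec14a and Gpihbp1, both endothelial markers, had at most 3 counts over the 12 libraries. An epidermal score, the mean log2 CPM of the 22 epidermis genes that passed the filter, ranged from -0.19 to 1.56 in control, from -0.88 to -0.47 in trametinib, from -0.08 to 3.3 in cediranib and from 3.39 to 3.9 in combination treated tumors. It was high in every combination treated tumor and in cediranib replicates 1 and 3.

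Endothelial identity is set by several families of transcription factors that share enhancers. ETS factors recognise a GGAA core. Erg and Fli1 maintain the endothelial program of mature vessels, while Ets1 and Ets2 are broadly expressed members that ERK can phosphorylate. Sox7, Sox17 and Sox18 form the SOXF group, which acts in arterial and lymphatic specification and in vessel integrity. Tal1 and Gata2 work together in blood and endothelial progenitors, and Gata2 stays expressed in endothelium and in mast cells. Klf2 is induced by laminar flow through the kinase ERK5 and MEF2 factors, and it drives anti-inflammatory and vasodilator genes.

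Promoter windows were matched for 5 of the 10 factors in RefSeq (GRCm38.p6), namely Erg, Ets2, Tal1, Gata2 and Klf2. The 250 bases before the RefSeq start of Gata2, Ets2 and Klf2 are shown because ERK-responsive ETS factors bind GGAA. These windows belong to 1 factor that fell with trametinib and to 2 that did not pass the test. Capitals mark GGAA or its reverse complement TTCC, and in Klf2 also a run of 10 bases that matches the MEF2 consensus. The windows, all on the plus strand, lie at chr6:88193641-88193890 for Gata2, chr16:95702157-95702406 for Ets2 and chr8:72318812-72319061 for Klf2. The RefSeq start of Klf2 lies 29 bases inside the deposited gene. In GENCODE M21 Ets2 starts farther upstream, at 95702075, so its window lies inside the gene of that annotation.
Gata2: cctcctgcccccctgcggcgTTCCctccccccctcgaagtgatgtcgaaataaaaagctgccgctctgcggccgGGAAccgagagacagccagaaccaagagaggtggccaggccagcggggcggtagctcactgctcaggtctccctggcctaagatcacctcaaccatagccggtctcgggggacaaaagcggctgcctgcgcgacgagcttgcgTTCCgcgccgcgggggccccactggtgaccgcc
Ets2: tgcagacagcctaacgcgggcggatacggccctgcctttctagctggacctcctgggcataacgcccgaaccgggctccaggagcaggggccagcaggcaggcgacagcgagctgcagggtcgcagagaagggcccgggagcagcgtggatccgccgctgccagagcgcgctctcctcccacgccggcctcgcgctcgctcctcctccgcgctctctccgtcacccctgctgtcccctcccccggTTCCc
Klf2: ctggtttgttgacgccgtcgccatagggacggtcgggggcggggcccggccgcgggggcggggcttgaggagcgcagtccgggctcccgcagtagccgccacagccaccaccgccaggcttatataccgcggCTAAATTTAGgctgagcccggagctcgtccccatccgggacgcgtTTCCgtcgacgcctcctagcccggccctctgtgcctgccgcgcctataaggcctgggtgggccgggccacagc
On both strands together, GGAA occurred 3 times in the window of Gata2, 1 time in that of Ets2 and 1 time in that of Klf2. Of all 32851 RefSeq mouse promoter windows of this length 93.4% held GGAA, with a median of 3 matches, so its presence sets none of these windows apart. The MEF2 consensus, searched on both strands and overlapping no GGAA, occurred 1 time in the Klf2 window, in 0 of the other 4 matched windows and in 0.508% of all windows. These matches are descriptions of sequence and were not tested as binding sites.

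Per kilobase of the deposited gene length, Ets1 had the highest level of the 10 factors in every treatment. In control tumors it had 26.6 ± 3.3 CPM per kb (mean ± SD, n = 3), apart from Fli1 at 17.2 ± 3.42, which overlapped Gata2 at 14.9 ± 1.24 CPM per kb. Klf2 (9.77), Erg (7.61), Ets2 (7.09), Sox18 (6.19) and Sox7 (4.16 CPM per kb) followed in control, and neighbours in this order overlapped. Tal1 at 0.427 and Sox17 at 0.0965 CPM per kb were the lowest, each apart from its neighbours. In trametinib treated tumors Klf2 (12.1 ± 0.895) and Gata2 (9.93 ± 1.0) stood above Fli1 (6.5 ± 0.721 CPM per kb), with no overlap between these neighbours. In combination treated tumors Fli1 stood at 5.02 ± 1.52 CPM per kb, below Ets2 at 7.12 ± 2.44, whose range overlapped that of Fli1. Levels between genes depend on the probes, and for Erg and Ets2 the deposited lengths of 2232 and 3552 bases are shorter than the exons of GENCODE M21 (3466 and 5780 bases).

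**Figure D1:**
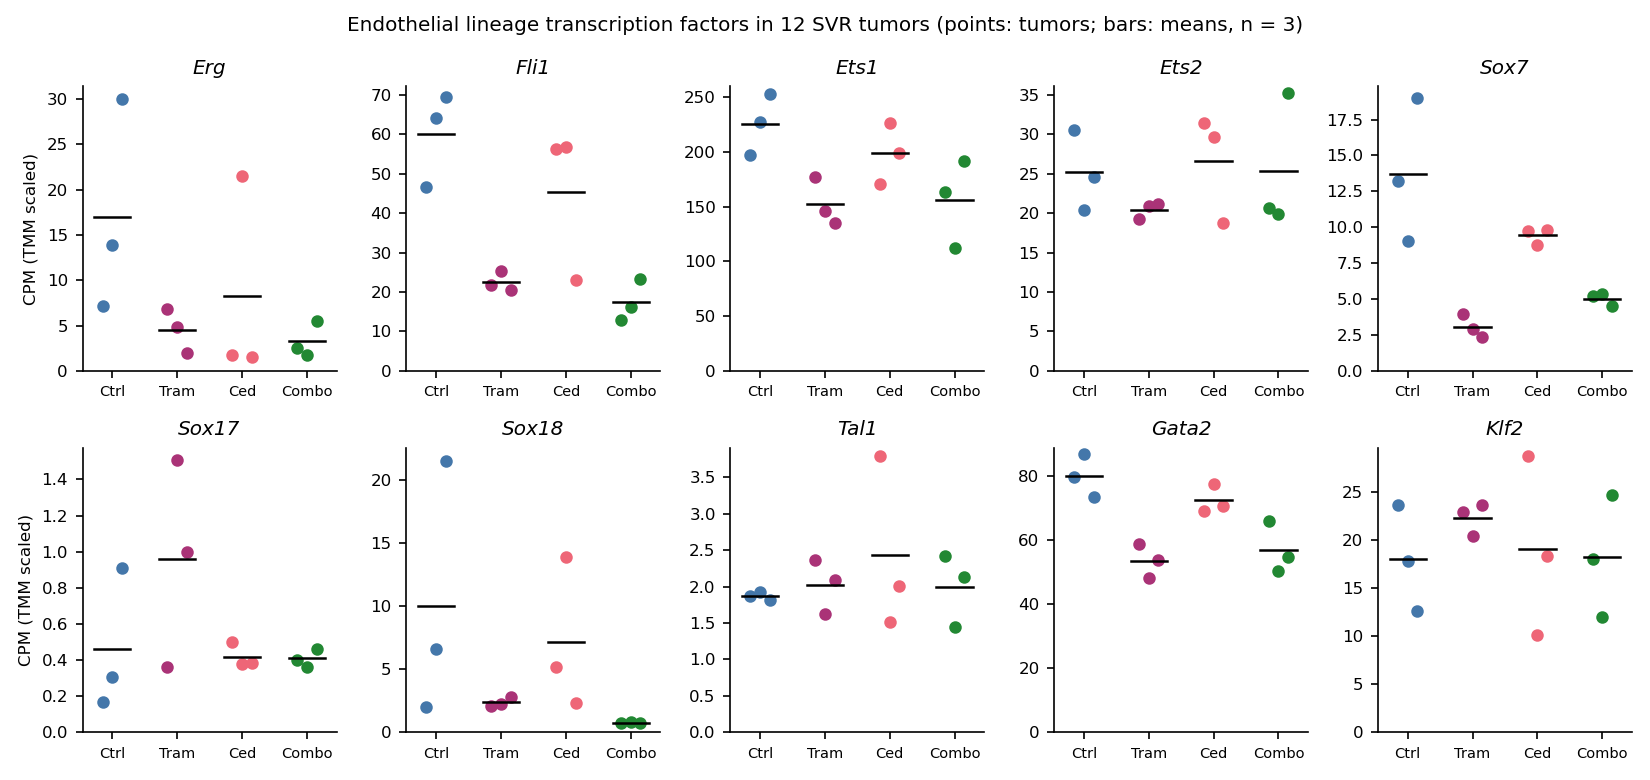
TMM scaled CPM of each of the 10 factors (y axes, linear, from 0) in control, trametinib, cediranib and combination treated tumors, with points for tumors and bars for means (n = 3). Fli1, Sox7 and Gata2 were lower in all trametinib treated tumors than in all control tumors, while Klf2 and Ets2 overlapped, and Erg and Sox18 had 1 tumor far above the others in both control and cediranib.

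Fli1 fell with trametinib, alone and with cediranib. Its gene (ENSMUSG00000016087) is found at 32422204 to 32542861 of chromosome 9, minus strand. Control tumors had 46.6, 64.0 and 69.4 CPM and trametinib treated tumors 21.9, 25.4 and 20.6 CPM. Cediranib treated tumors had 56.2, 56.8 and 23.0 CPM, and combination treated tumors 13.0, 16.1 and 23.3 CPM. All 6 tumors that received trametinib lay below every control tumor, and cediranib replicate 3, with an epidermal score of 3.15, lay among them, while cediranib replicate 1, with a score of 3.3, lay within the control range. The log2 fold change against control was -1.41 with trametinib (SE 0.32, FDR 0.0215) and -1.78 with the combination (SE 0.32, FDR 0.00744), which is 2.65-fold and 3.42-fold lower. These and all FDRs below are Benjamini-Hochberg adjusted over all genes tested, from the quasi-likelihood test of edgeR. A gene was called at an FDR under 0.05 and a log2 fold change of at least 1.5 in size, the threshold used in the study, so Fli1 was called in the combination and passed only the FDR with trametinib alone. The FDR with trametinib rose to between 0.0521 and 0.0805 when control replicate 2 or 3 or any of the 3 trametinib replicates was left out. When the score was added as a covariate, the combination gave -1.25 (FDR 0.348).

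Erg had the largest fitted coefficient of variation of the 9 factors tested. The gene (ENSMUSG00000040732) is found at 95360204 to 95530365 of chromosome 16, minus strand. Control tumors had 7.14, 13.9 and 30.0 CPM and cediranib treated tumors 1.79, 21.5 and 1.53 CPM. Trametinib treated tumors had 6.80, 4.88 and 2.01 CPM and combination treated tumors 2.52, 1.81 and 5.46 CPM. The cediranib tumors with low Erg were those with epidermal scores of 3.3 and 3.15, and the one with high Erg had a score of -0.08, yet trametinib treated tumors had low Erg at the lowest scores. The part of the epidermal genes in the level of Erg was not tested tumor by tumor. The biological coefficient of variation of Erg was 73%, against a median of 21.5% over all genes tested. Every trametinib and every combination treated tumor lay below every control tumor, but the gap was as small as 6.80 against 7.14 CPM. Trametinib gave a log2 fold change of -1.9 (95% interval -3.87 to 0.08, FDR 0.264) and the combination -2.37 (-4.4 to -0.35, FDR 0.124), and neither passed the test. Erg was called in the combination when only the groups compared were fitted (-2.38, FDR 0.0428), and in both comparisons without the filter on low counts (FDR 2.24e-08 and 2.59e-12). Without that filter it also passed the FDR with cediranib, under the size for a call (-1.05, FDR 0.0215). With the score as a covariate the values became -2.75 (FDR 0.0133) with trametinib and 1.14 (FDR 0.693) with the combination, so the direction in the combination changed with that term.

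Neither Ets1 nor Ets2 was called in any comparison. Ets1 (chromosome 9, 32636221 to 32757820, plus strand, ENSMUSG00000032035) had 197, 227 and 253 CPM in control, 177, 146 and 135 CPM in trametinib, 171, 226 and 199 CPM in cediranib and 163, 112 and 192 CPM in combination treated tumors. Its 6 tumors with trametinib lay below all control tumors but overlapped the cediranib treated tumors. Ets1 did not pass against control with trametinib (log2 fold change -0.57, SE 0.19, FDR 0.108) or with the combination (-0.53, SE 0.19, FDR 0.0955). Averaged over both settings, tumors with trametinib against tumors without, it had -0.46 (SE 0.13, FDR 0.0362), under the size needed for a call. Without any 1 of control replicates 2 and 3, trametinib replicates 2 and 3, cediranib replicates 2 and 3 and combination replicates 1 and 2, that FDR was 0.062 to 0.0845.

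Ets2 (chromosome 16, 95702407 to 95721045, plus strand, ENSMUSG00000022895) had 30.5, 20.4 and 24.6 CPM in control and 19.3, 20.9 and 21.2 CPM in trametinib treated tumors. It had 31.5, 29.6 and 18.7 CPM with cediranib and 20.7, 19.9 and 35.3 CPM with the combination. All groups overlapped. Against control the log2 fold change of Ets2 was -0.3 with trametinib (95% interval -0.85 to 0.25, FDR 0.574) and 0.01 with the combination (-0.54 to 0.56, FDR 0.991). Its window shown above held 1 GGAA.

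The make-up of the 4 ETS factors differed between control tumors and tumors with trametinib. As shares of their summed CPM per kb, Fli1 made up 27.6% to 32.1% in control, 17.7% to 22.4% in trametinib and 12.5% to 19.1% in combination treated tumors, and these ranges did not overlap control. The share of Ets1 was 42.6% to 48.0% in control, 52.8% to 58.5% in trametinib and 54.3% to 64.3% in combination treated tumors. Cediranib treated tumors spanned both, with Fli1 at 35.1%, 26.8% and 18.3% and Ets1 at 43.9%, 43.7% and 65.2% in replicates 1 to 3. These shares were not tested.

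**Figure D2:**
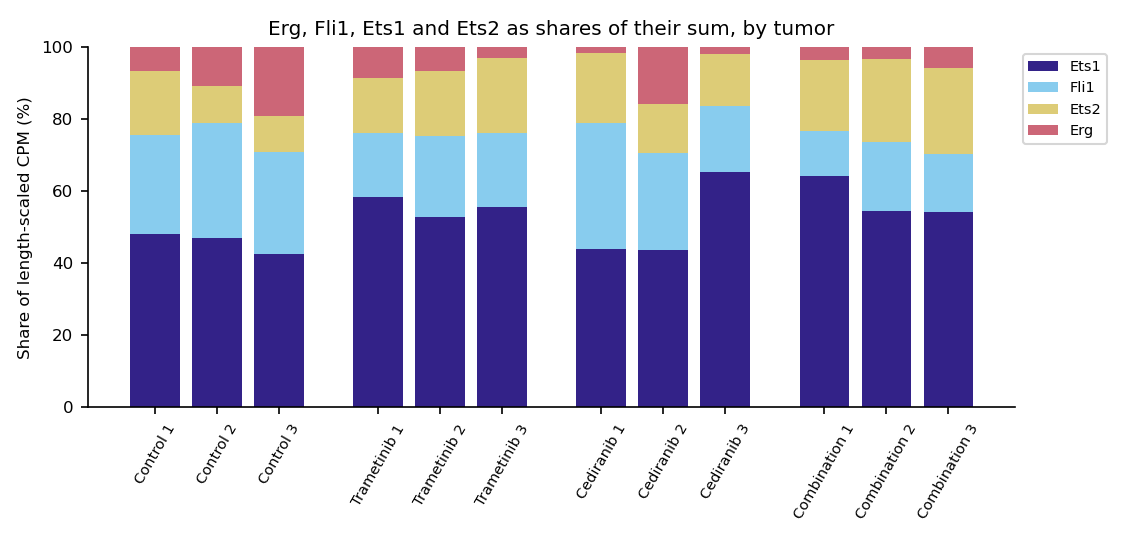
Ets1, Fli1, Ets2 and Erg as percent of their summed length-scaled CPM (y axis, 0 to 100%) in each of the 12 tumors (x axis), as stacked bars. Ets1 took 42.6% to 48.0% in the 3 control tumors and 52.8% to 64.3% in the 6 tumors with trametinib, and cediranib replicate 3 reached 65.2%.

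Sox7 fell with trametinib, and its call did not depend on any single library. The gene (ENSMUSG00000063060) is found at 63943673 to 63950732 of chromosome 14, plus strand. Control tumors had 13.2, 9.01 and 19.0 CPM, and trametinib treated tumors 3.99, 2.90 and 2.34 CPM. Cediranib treated tumors had 9.77, 8.78 and 9.84 CPM, and combination treated tumors 5.24, 5.34 and 4.54 CPM. The 6 tumors with trametinib all lay below the 6 tumors without it. The log2 fold change was -2.15 with trametinib (SE 0.28, FDR 0.00117), 4.44-fold lower, and Sox7 was called in each fit that left out 1 library. With the combination it was -1.44 (SE 0.27, FDR 0.00888), past the FDR and just under the size for a call, and the FDR was 0.178 with the epidermal covariate (-1.53). Over both settings it was -1.53 (SE 0.2, FDR 0.000355). Combination treated tumors lay above trametinib treated tumors, with a log2 fold change of 0.71 (95% interval 0.09 to 1.33) that did not pass (FDR 0.22).

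Sox18 was lowest in the combination. The gene (ENSMUSG00000046470) is found at 181669836 to 181671640 of chromosome 2, minus strand. Control tumors had 2.04, 6.58 and 21.5 CPM and cediranib treated tumors 5.19, 13.9 and 2.29 CPM. Trametinib treated tumors had 2.08, 2.21 and 2.84 CPM and combination treated tumors 0.706, 0.815 and 0.741 CPM. All combination treated tumors lay below every other tumor, whereas trametinib treated tumors overlapped control replicate 1. The log2 fold change against control was -3.71 with the combination (SE 0.85, FDR 0.0199), 13-fold lower, and -2.06 with trametinib (SE 0.75, FDR 0.139). The value with trametinib was -0.84 (FDR 0.587) without control replicate 3, and Sox18 was called without control replicate 1 (-2.55, FDR 0.0455). The combination rested on 24 counts over its 3 libraries. The call was lost without control replicate 3 (-2.48, FDR 0.0803) or without combination replicate 1, 2 or 3 (FDR 0.0656, 0.0636 and 0.0654), and the value with the epidermal covariate was -0.99 (FDR 0.794).

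Sox17 had 2 to 13 counts per library, from 0.17 CPM in control replicate 1 to 1.51 CPM in trametinib replicate 2. The gene (ENSMUSG00000025902) is found at 4490931 to 4496413 of chromosome 1, minus strand, and the 3 libraries of a group together held 14 counts in control, 29 in trametinib, 13 in cediranib and 13 in combination treated tumors. Below the filter it was not tested with the other factors. In the fit without that filter the log2 fold change of Sox17 with trametinib was 1.02 (FDR 0.76).

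Gata2 fell with trametinib by a small and even amount. The gene (ENSMUSG00000015053) is found at 88193891 to 88207030 of chromosome 6, plus strand. Control tumors had 79.8, 87.0 and 73.6 CPM and cediranib treated tumors 69.1, 77.6 and 70.7 CPM. Trametinib treated tumors had 58.9, 48.1 and 53.8 CPM and combination treated tumors 66.1, 50.4 and 54.8 CPM. The 6 tumors with trametinib lay below the 6 without it, and its coefficient of variation of 13.6% was the lowest of the 9 factors tested. The log2 fold change was -0.58 with trametinib (SE 0.13, FDR 0.0209) and -0.49 with the combination (SE 0.13, FDR 0.0355), 1.49-fold and 1.40-fold lower and well under the size for a call. Over both settings it was -0.46 (SE 0.09, FDR 0.00512). With trametinib alone the FDR was 0.0504 to 0.0833 without control replicate 1 or 2 or trametinib replicate 2 or 3. With the combination it was 0.0585 to 0.116 without any 1 control replicate or without combination replicate 2 or 3, and 0.119 with scaling to library totals, 0.068 without the filter on low counts, 0.0706 with only the groups compared and 0.606 with the epidermal covariate. Mast cells also express Gata2. Of 9 mast cell markers Ms4a2 and Fcer1a had at most 3 counts over all libraries, and the summed CPM of the list was 5.46 to 41.4 in control, 7.11 to 19.1 in trametinib, 24.5 to 38.2 in cediranib and 62.9 to 123 in combination treated tumors. The mast cell list was thus highest in the combination, where Gata2 lay below control. The part of mast cells in the level of Gata2 was not tested.

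Tal1 was scarce and did not pass the test. The gene (ENSMUSG00000028717) is found at 115056426 to 115071755 of chromosome 4, plus strand. It had 1.87, 1.92 and 1.82 CPM in control, 2.36, 1.63 and 2.09 CPM in trametinib, 3.79, 1.51 and 2.01 CPM in cediranib and 2.42, 1.45 and 2.13 CPM in combination treated tumors, so all groups overlapped. The log2 fold change of Tal1 was 0.12 with trametinib (95% interval -0.69 to 0.93, FDR 0.9) and 0.09 with the combination (-0.71 to 0.9, FDR 0.901). Lyl1, a close relative of Tal1, fell in tumors with trametinib against tumors without (log2 fold change -2.04, SE 0.46, FDR 0.01). It was 1 of 11 tested partners of Tal1 and Gata2 called in that comparison, beside 1.71% of all genes called lower. With trametinib or the combination against control 0 of the 11 were called, beside 2.40% and 3.61% of all genes. Gata3 was called higher in the combination against trametinib (1.73, FDR 0.0475), beside 0.535%. Lyl1 was called lower in the combination against cediranib (-2.41, FDR 0.0442), beside 1.16%.

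Klf2 did not pass the test in any comparison. The gene (ENSMUSG00000055148) is found at 72319033 to 72321656 of chromosome 8, plus strand. Control tumors had 23.7, 17.8 and 12.6 CPM and trametinib treated tumors 22.9, 20.4 and 23.6 CPM. Cediranib treated tumors had 28.7, 10.1 and 18.3 CPM and combination treated tumors 18.0, 12 and 24.7 CPM. All 4 groups overlapped. For Klf2 the log2 fold change was 0.31 with trametinib (95% interval -0.47 to 1.08, FDR 0.703) and 0.01 with both drugs (-0.76 to 0.79, FDR 0.985). Of 10 genes of the pathway that induces Klf2, 0 were called with trametinib, beside 2.40% of all genes. With the combination 1 of the 10 was called, Heg1, a junctional receptor of that pathway. It rose (1.53, SE 0.3, FDR 0.0103), beside 1.91% of all genes called higher.

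The list of genes linked to Klf2 also held Klf4, a related factor and not an established target. Of 4 tested, 3 had lower values and 1 (Klf4) a higher value, with trametinib and with the combination. With trametinib 2 were called lower and 1 higher, beside 1.43% and 0.977% of all genes. Nos3 (endothelial nitric oxide synthase) fell with trametinib by 2.45 on the log2 scale (SE 0.42, FDR 0.00515). S1pr1, a sphingosine phosphate receptor, fell by 2.29 (SE 0.57, FDR 0.036). Klf4, a related factor also expressed in epidermis, rose by 1.93 (SE 0.32, FDR 0.004). With the combination the values were -1.67 for Nos3 (FDR 0.0255), -2.82 for S1pr1 (FDR 0.0127) and 1.88 for Klf4 (FDR 0.00591), and all 3 were called.

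With trametinib against control, 1 of the 9 factors tested was called lower (Sox7), as were 1.43% of all 12897 genes. By the FDR alone Fli1, Sox7 and Gata2 were lower, beside 3.47% of all genes. The 3 trametinib treated tumors lay below the 3 control tumors for 5 factors (Erg, Fli1, Ets1, Sox7 and Gata2), beside 12.9% of all genes. With the combination against control 2 of 9 were called (Fli1 and Sox18, both lower), beside 1.71% of all genes. By the FDR alone 4 were lower, with Sox7 and Gata2 added, beside 5.13%. Ranges lay apart and lower for 6 factors, with Sox18 added to the same 5, beside 15.7%. These comparisons share the control tumors. With the epidermal covariate 4 factors were called lower with trametinib, beside 1.71% of all genes, and 0 with the combination, beside 0.233%, in a fit where all 3 combination treated tumors have high scores and all trametinib treated tumors low ones.

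With cediranib alone 0 of 9 factors and 0 of 12897 genes were called by edgeR's quasi-likelihood test (background 0%). Without adjustment 557 genes had a p under 0.05, 4.32% of those tested, with none of the 9 factors among them. The Wald test of DESeq2 called 10 genes and edgeR's likelihood ratio test 14, with 0 factors called by either. The log2 fold changes ran from -1.03 for Erg (95% interval -2.93 to 0.87) through -0.53 for Sox7 (-1.11 to 0.04) to 0.38 for Tal1 (-0.42 to 1.18). These intervals leave changes of appreciable size possible for Erg and Sox18 (-2.01 to 1.04), and bound that of Gata2 (-0.43 to 0.14) more closely. With cediranib replicates 1 and 3 left out for their epidermal scores, which leaves 1 cediranib treated tumor whose spread is taken from the other groups, Erg had 0.34 and Sox18 0.47 against control. Without cediranib replicate 2 they had -3.34 (FDR 0.2) and -1.42 (FDR 0.689).

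**Figure D3:**
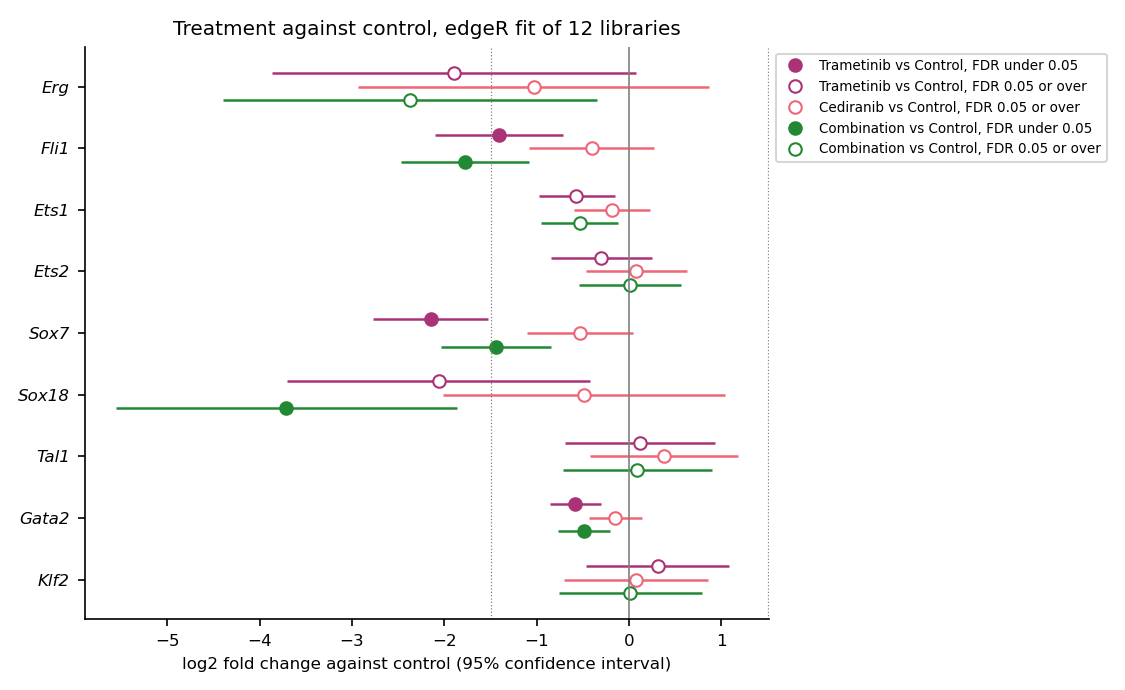
Log2 fold changes against control (x axis, points, with 95% confidence intervals as lines) of the 9 factors tested (y axis) with trametinib, cediranib and the combination, filled where the FDR was under 0.05, with dotted lines at a size of 1.5. Sox7, Fli1 and Gata2 were past the FDR with trametinib and with the combination, Sox18 with the combination, and no factor with cediranib.

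Addition of cediranib to trametinib gave no called factor of 9, beside 0.675% of all genes by edgeR's quasi-likelihood test. Without adjustment 1 factor had a p under 0.05, namely Sox7, beside 17.9% of all genes by edgeR, and the Wald test of DESeq2 and edgeR's likelihood ratio test called 0 factors. The 2 groups did not overlap for 2 factors, Sox7 (higher in the combination) and Sox18 (lower), beside 24.2% of genes in either direction. Sox18 had a log2 fold change of -1.64 (95% interval -3.55 to 0.26, FDR 0.352). Addition of trametinib to cediranib gave 1 called factor, Sox18 (-3.22, SE 0.85, FDR 0.0407), beside 1.16% of all genes called lower. By the FDR alone Fli1 (-1.37, SE 0.32, FDR 0.0246) was lower too, 2 of 9 beside 3.78%. The call of Sox18 was lost (FDR 0.0683 to 0.141) without cediranib replicate 1 or 2 or any combination replicate, and Fli1 missed the FDR (0.0769 to 0.0902) without cediranib replicate 1 or 2 or combination replicate 1 or 2.

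Over the 6 tumors with trametinib against the 6 without, 2 factors were called, Sox7 and Sox18 (-2.64, SE 0.57, FDR 0.00797), beside 1.71% of all genes called lower. Sox7 lay under the size for a call without control replicate 3 (-1.38) or trametinib replicate 3 (-1.44), and with scaling to library totals (-1.47). By the FDR alone Fli1 (-1.39, SE 0.22, FDR 0.00146), Ets1 and Gata2 were also lower, 5 of 9 beside 8.54% of all genes. The 6 tumors with trametinib lay below the 6 without for 2 factors (Sox7 and Gata2), beside 4.34% of genes. The effect of cediranib was compared with and without trametinib in an interaction term, which was not past the FDR for any of the 9 factors or 12897 genes (edgeR, background 0%). Without adjustment 909 genes (7.05%) had a p under 0.05, with Sox7 as the 1 factor among them (interaction 1.25, SE 0.39, FDR 0.635), and DESeq2 and edgeR's likelihood ratio test each called 28 genes and 0 factors.

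Of 12 tested endothelial markers 11 had lower values with trametinib against control and 1 a higher value, so the factors were also set relative to them. The mean log2 CPM of the 12 tested endothelial markers was 2.2 to 2.9 in control, 1.72 to 2.63 in cediranib, 1.17 to 1.47 in trametinib and 0.81 to 1.32 in combination treated tumors. The summed CPM of all 14 markers, which weights abundant ones, differed less. It was 127 to 173 in control, 98.6 to 152 in cediranib, 89.4 to 121 in trametinib and 97.6 to 130 in combination treated tumors, the last overlapping control. Because the mean log2 CPM of the markers fell, a gene that did not move is higher relative to it. Over all 12897 genes the median difference between tumors with and without trametinib was 1.14 on the log2 scale. The values below are thus a description, with no test. Klf2 had a difference of 1.31 and was higher in each of the 6 tumors with trametinib than in the 6 without, as were 44.6% of all genes. The difference was 1.09 for Tal1, 0.96 for Ets2, 0.67 for Ets1 and 0.67 for Gata2, all below the median of all genes. Erg, Fli1, Sox7 and Sox18 had differences of 0.04, -0.2, -0.33 and -0.88. For Erg the tumors without trametinib had an SD of 1.38 on this scale. Sox7 lay 0.792 to 1.548 above the marker mean in control and 0.066 to 0.597 above it in trametinib treated tumors, while combination treated tumors overlapped control at 0.929 to 1.663. Sox18 lay from -0.28 to 0.327 in trametinib treated tumors, within the range of control (-1.035 to 1.539), and from -1.415 to -0.797 in combination treated tumors.

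**Figure D4:**
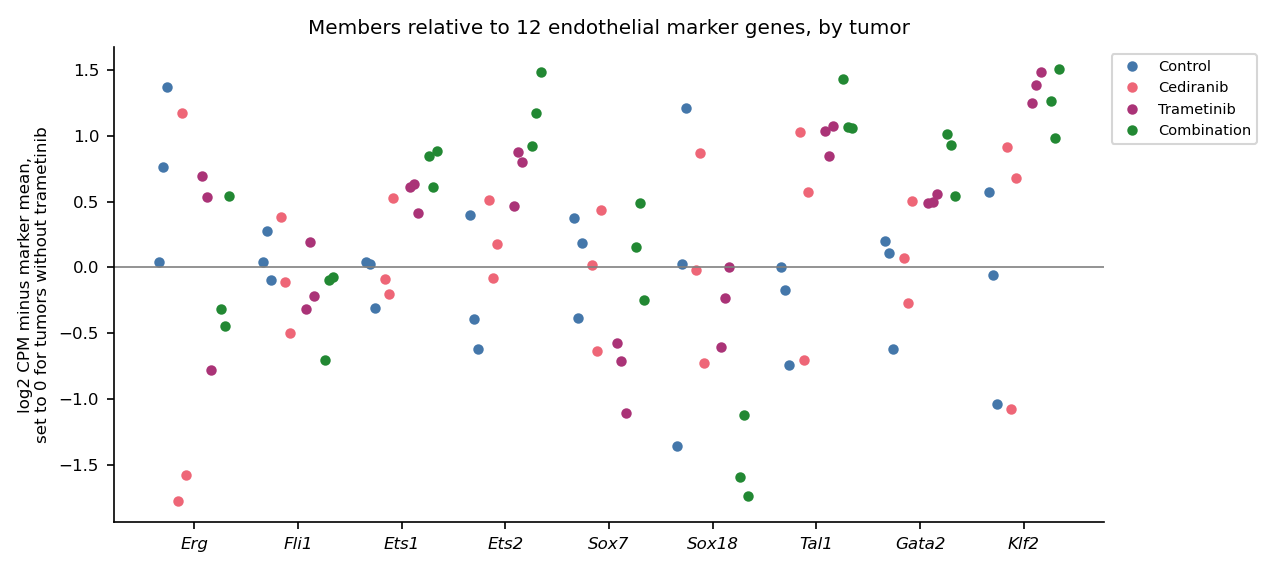
Log2 CPM of the 9 factors tested (x axis) minus the mean of 12 endothelial markers, set to 0 at the mean of the tumors without trametinib (y axis), with a point for each of 12 tumors colored by treatment. For Klf2 all 6 tumors with trametinib lie above the 6 without, as for 44.6% of all genes, and for Fli1 and Erg the treatments overlap.

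Genes that ETS and SOXF factors are known to drive in endothelium were lower with trametinib. Of 21 such genes 17 were tested, and 7 fell with trametinib and 10 with the combination, with 0 rising in either. Their median log2 fold change was -1.74 and -1.8, beside 0.006 and 0.002 over all genes tested, of which 1.43% and 1.71% were called lower. Dll4, a Notch ligand of arterial and tip cells, had -3.09 with trametinib (SE 0.81, FDR 0.0423) and -6.15 with the combination (SE 1.07, FDR 0.00647). Notch4, an endothelial Notch receptor, had -1.91 (SE 0.25, FDR 0.00111) and -1.62 (SE 0.25, FDR 0.00371). Rasip1, a regulator of vessel lumen formation, had -2.27 (FDR 0.0138) and -2.43 (FDR 0.00991). Robo4 and Flt4, an endothelial guidance receptor and a VEGF receptor, fell with the combination, with -3.39 (FDR 0.0186) and -3.13 (FDR 0.0158). Cdh5 had -1.99 with trametinib (FDR 0.0423) and -2.37 with the combination (FDR 0.0173), and Tie1 had -1.97 (FDR 0.0379) and -2.43 (FDR 0.0131). Vwf, the von Willebrand factor, had -1.74 (FDR 0.0406) and -1.61 (FDR 0.0413). Dll4, Notch4, Rasip1, Cdh5, Tie1 and Vwf were called in both comparisons. Kdr, the main VEGF receptor, had -1.98 with trametinib (SE 0.55, FDR 0.0566) and was called with the combination (-2.24, SE 0.56, FDR 0.0287). Tek, the angiopoietin receptor, had -0.98 (FDR 0.334) and -1.48 (FDR 0.107).

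Of 14 other endothelial markers 12 were tested, and 4 fell with trametinib and 4 with the combination, beside the same 1.43% and 1.71% of all genes, with medians of -1.26 and -1.69. Pecam1 fell with trametinib (-2.38, SE 0.47, FDR 0.0111) and with the combination (-2.93, SE 0.49, FDR 0.0059). Calcrl, an adrenomedullin receptor component, and Cd93, an endothelial surface receptor, fell with trametinib (-2.66, SE 0.33, FDR 0.000725 and -2.5, SE 0.61, FDR 0.0313). Other cell type markers also moved. The summed CPM of 9 erythroid genes was 73.9 to 1790 in control, 54.8 to 90.9 in trametinib, 54.0 to 569 in cediranib and 15 to 16.3 in combination treated tumors. That of 10 fibroblast genes was 2230 to 22000, 8610 to 38700, 1790 to 7240 and 3460 to 5970, and that of 10 macrophage genes 390 to 688, 305 to 435, 283 to 442 and 176 to 314 in the same order. The summed CPM of 28 epidermis genes was 97.9 to 182 in control, 96.1 to 142 in trametinib, 111 to 433 in cediranib and 490 to 706 in combination treated tumors. The part of these cells in the levels of the factors was not tested.

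Among other endothelial transcription factors, 17 tested, Bcl6b (-1.73, SE 0.23, FDR 0.00142) and Hhex (-1.73, SE 0.2, FDR 0.000468) were called lower with trametinib, beside 1.43% of all genes. None of the 17 was called higher. By the FDR alone 3 of the 17 were higher and 3 lower with trametinib, beside 2.64% and 3.47% of all genes. With the combination only Heyl, a Notch target, was called (-3.36, SE 0.93, FDR 0.0416), beside 1.71% of all genes called lower, so Bcl6b and Hhex were not. Of 15 other ETS genes tested, Etv5 (-3.67, SE 0.28, FDR 3.35e-05) and Etv4 (-2.84, SE 0.23, FDR 5.79e-05), PEA3 factors induced by ERK, fell with trametinib, and the median of these 15 genes was -0.13. Of 7 other SOX genes tested 0 were called by edgeR in either comparison, and 0 passed the FDR. Of 6 tested targets of Ets1 and Ets2, Mmp9, a matrix protease, and Plaur, the urokinase receptor, fell with trametinib (-2.66, SE 0.72, FDR 0.0497 and -2.2, SE 0.48, FDR 0.0182). With the combination only Plaur was called (-1.9, SE 0.47, FDR 0.0259). Of all genes 1.43% and 1.71% were called lower in these comparisons. Transcripts induced by ERK fell in 9 of 14 cases with trametinib and in 8 with the combination, beside 1.43% and 1.71% of all genes. Among them were Dusp6, an ERK phosphatase (-3.7 and -1.91, FDR 1.59e-05 and 0.000747), and Spry4, a feedback inhibitor (-3.14 and -2.26, FDR 0.000388 and 0.00254). In the combination against trametinib all 14 had higher values, with a median of 0.9. There Dusp6 (1.79, FDR 0.0196) and Etv5 (1.58, FDR 0.0269) were called higher, beside 0.535% of all genes.

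The genes with the pattern most like each called factor were taken by the root mean square difference of centred log2 CPM over the 12 libraries. For Fli1, whose own root mean square was 0.8, they were Pitpnc1 (0.16), Plscr1 (0.25) and Ppp1r16b (0.27). For Sox7, with 0.84, they were Parvb (0.29), Trib1 (0.3) and Notch4 (0.3). For Sox18, with 1.42, they were Mcam (0.58), Pcdh12 (0.58) and Gm48529 (0.59), all farther from it than the neighbours of the other 2 factors.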

How the data were processed

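RNA sequencing counts of 12 SVR tumors, 3 per treatment, were grouped by title and treatment label. Per the study's methods and its processing notes, the authors made base calls with bcl2fastq 1.8.4, used STAR 2.7.1a for alignment to GRCm38 and featureCounts 1.6.0 for counting. The deposited values were raw counts per gene, with a coding length. For the annotation release, the strand setting and multi-mapped reads, the settings were not given in the sources used here. No molecular identifiers are named there, so limits from counts cover counting error only.

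Genes passing filterByExpr (minimum count 10, minimum total 15) were scaled with TMM factors (0.908 to 1.098) and tested in 1 edgeR 4.0.16 quasi-likelihood fit of all 12 libraries (R 4.3.3). Calls required an FDR of 0.05 and a log2 fold change of 1.5, after the study's threshold. Log2 CPM used a prior count of 2. Alternatives were DESeq2 1.42.0 (size factors and Wald test), library totals, no filter, the likelihood ratio test, only the groups compared, the replicate block, the epidermal covariate and leaving out single libraries. Values relative to endothelial markers are given with no test, although an exact permutation test was planned, since most genes rise against markers that fell. No pair of libraries was identical, and tumors are assumed separate animals, so p-values measure the spread between these tumors. Positions are those of the deposited table, and exon lengths those of GENCODE M21. Fli1 and Ets1 overlap small genes in introns that had at most 18 counts over all libraries.

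The factors and gene lists were chosen with earlier results of these data known. All 10 factors are reported. Of each list the text names part of the called genes, not always those of largest change. With trametinib, Myct1 of the endothelial markers (-3.36, FDR 0.0375) and Dusp4 of the ERK transcripts (-3.95, FDR 0.000986) changed most in their lists and are not named above. Cdh5, Pecam1, Kdr, Tek, Tie1, Vwf, Dusp6 and Spry4 were always given, as were the 3 nearest genes of each called factor. Other marker lists (pericyte, neutrophil, lymphoid, megakaryocyte, skeletal muscle, adipocyte and lymphatic) were computed, and their sums are given with the closing observations.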

Additional observations from a re-analysis of the deposited data

How the results depend on the processing

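Trametinib against control called Sox7 under every alternative run. Without the filter on low counts, all genes called rose to 687 (trametinib), 324 (cediranib), 1129 (combination), 773 (combination against trametinib), 637 (combination against cediranib), 701 (trametinib average) and 261 (interaction), and the factors called with trametinib and for combination against trametinib were 3 and 1. The Wald test of DESeq2 called 2 factors with trametinib, adding Sox18 (-2.08, adjusted p = 0.037), and 10, 347 and 28 genes for cediranib, combination against trametinib and interaction. The likelihood ratio test called 14, 401 and 28 genes there, and fitting only the groups compared gave 274 for combination against trametinib. Library totals left 1 factor called in the trametinib average and moved the median log2 fold change of all genes to 0.12 for the combination against control, with none of the 9 factors changing direction with trametinib or the combination against control. The cause of these shifts was not tested.

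With the epidermal covariate, factors called were 4 (trametinib), 0 (combination) and 0 (combination against cediranib), and genes called were 55 (combination) and 0 (combination against trametinib). Log2 fold changes that turned were 0.77 (Sox18) and -0.02 (Tal1) with cediranib, 1.14 (Erg), -0.56 (Tal1) and -1.08 (Klf2) with the combination, and 1.6 (Sox18, combination against trametinib). Without cediranib replicates 1 and 3, an alternative chosen after seeing the data that leaves 1 cediranib treated tumor, assumed to vary like the other groups, cediranib gave 0.34 (Erg), 0.47 (Sox18) and -0.31 (Tal1), and combination against cediranib called 121 genes.

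Tumors of the same number did not deviate together (correlations from -0.219 to 0.356), so the numbers do not pair them. With the replicate block, combination against trametinib called 57 genes, combination against cediranib called 0 factors (Sox18, FDR 0.0527), Ets1 in the trametinib average had an FDR of 0.0545, and Klf2 with the combination was -0.01.

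Leaving out single libraries, factors called ranged from 1 to 3 with trametinib, the combination and the trametinib average, and from 0 to 2 for combination against cediranib. Genes called ranged from 0 to 7 (cediranib), 248 to 569 (combination), 0 to 24 (combination against trametinib), 193 to 281 (combination against cediranib) and 0 to 1 (interaction). Values that turned were, with the combination, Ets2 (-0.32 to 0.17), Klf2 (-0.28 to 0.26) and Tal1 (-0.06 to 0.28), with cediranib, Sox18 (-1.42 to 0.73) and Tal1 (-0.09 to 0.63), and Erg relative to the markers (-0.32 to 0.31). At 2 to 13 counts per library Sox17 stayed below the filter, and the part of depth, probes or transcript level in this was not tested.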

Other observations

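Other marker lists in whole tumor RNA varied within and between treatments. The summed CPM of 10 skeletal muscle genes was 11.7 to 18600 in control, 266 to 27200 in trametinib, 28.9 to 185 in cediranib and 40.1 to 675 in combination treated tumors. That of 8 pericyte genes was 92.7 to 456 in control, 190 to 1860 in trametinib, 84.5 to 221 in cediranib and 88 to 244 in combination treated tumors. Lymphatic markers, 6 genes near Sox18 in function, summed to 2.53 to 2.98 CPM in control, 0.92 to 1.97 in trametinib, 2.67 to 3.40 in cediranib and 1.01 to 4.35 in combination treated tumors, with Ccl21a and Mmrn1 at no more than 3 counts over all libraries. Of 10 lymphoid markers 8 had at most 3 counts over all libraries. The list summed to 3.54 to 3.83 CPM in control, 3.26 to 5.81 in trametinib, 3.63 to 5.66 in cediranib and 2.69 to 7.88 in combination treated tumors. Megakaryocyte genes, which share Tal1 and Gata2, summed to 5.67 to 13.8 CPM in control, 2.79 to 3.90 in trametinib, 4.87 to 9.57 in cediranib and 4.45 to 5.07 in combination treated tumors. Neutrophil genes summed to 0.202 to 3.33 CPM in control, 0.697 to 1.63 in trametinib, 1.72 to 3.02 in cediranib and 4.17 to 9.06 in combination treated tumors. Adipocyte genes overlapped in all groups, at 5.46 to 15.7 CPM in control, 11.5 to 35.4 in trametinib, 7.83 to 37.5 in cediranib and 6.43 to 14.3 in combination treated tumors.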
